A study of Rattus norvegicus with 20 samples.

Results

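Aqp1 encodes aquaporin 1, a channel in the cell membrane that lets water pass along an osmotic gradient. It was 1 of the 32883 Ensembl genes listed for each rat (ENSRNOG00000011648) and was followed here through all 20 choroid plexus libraries. The choroid plexus was taken from the lateral and the 4th ventricles of female Zucker rats, 16 weeks of age, and sequenced as 1 library per rat. The untreated cohort held 6 lean rats, heterozygous for the leptin receptor mutation (+/fa), and 6 obese rats, homozygous for it (fa/fa). The injected cohort held 4 lean control rats (+/fa, VEH), given sesame oil under the skin, and 4 obese + TT rats (fa/fa, TT), given testosterone propionate in sesame oil. No lean rat was given testosterone and no obese rat was given oil alone, so that obesity and testosterone are joined in the obese + TT rats, and cohort cannot be told apart from injection. Neither the estrous cycle nor a batch is given in the labels.

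The choroid plexus is a folded epithelium that hangs in the brain ventricles and secretes most of the cerebrospinal fluid (CSF). Its cells carry ion pumps and cotransporters that move sodium, potassium, chloride and bicarbonate from the blood to the ventricle, with water following. Aquaporin 1 sits mainly in the membrane that faces the ventricle and is the best known water channel of this epithelium. It is found in red blood cells and in the endothelium of many vessels as well, so that markers of these cells were read beside it. The values were deposited as TPM, transcripts per 1000000, in which read depth and gene length are divided out. How many reads stand behind a value is therefore unknown, and levels of different genes can be set side by side.

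The bases around the transcription start of Aqp1 are shown because the genes that varied with Aqp1 were compared with it for short promoter motifs. The 300 bases run from 250 before to 50 after the start and were taken from RefSeq on the build GRCr8 (chr4:85812534-85812833, + strand), another build than the one the reads were mapped to. The capitals mark a TATA box.

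Aqp1 promoter: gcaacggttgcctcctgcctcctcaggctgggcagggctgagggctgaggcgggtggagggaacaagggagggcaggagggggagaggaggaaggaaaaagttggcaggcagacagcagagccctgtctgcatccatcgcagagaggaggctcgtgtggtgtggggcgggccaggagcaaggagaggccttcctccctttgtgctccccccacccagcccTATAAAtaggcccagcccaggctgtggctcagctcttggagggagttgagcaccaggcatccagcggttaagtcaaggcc

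The TATA box (TATAAA, on either strand) began 30 bases before the start, and 14.2% of 33469 rat promoters of the same length held one. G and C made up 64% of the window. The letters of the CCAAT box (CCAAT), of an androgen and glucocorticoid receptor site (TGTTCT), of the GATA core (GATAA) and of an E box (CANNTG) were not in it, while 37.5, 20.7, 26.5 and 72.1% of the promoters held them. The Kruppel-like factor core (CACCC) occurred 2 times and was present in 54.9% of the promoters.

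Aqp1 was among the most abundant transcripts of the tissue in every group. Its mean over the 20 rats was 695.2 TPM, which placed it at rank 123 of the 32883 genes, and at rank 131 in the lean, 144 in the obese and 112 in the lean control rats, and higher still in the obese + TT rats. Next above it stood Vat1l (704.7 TPM), LOC100360449 (702.6 TPM) and the ribosomal protein gene Rpl36 (702.1 TPM). Next below it stood Scgb1c1 (689.8 TPM) and 2 genes of the mitochondrial respiratory chain and ATP synthase, Atp5f1a (686.1 TPM) and Ndufa11 (680.8 TPM). Of the 12 aquaporin genes looked for, the symbol tables used here gave an identifier for Aqp1 only, so that other aquaporins were not analysed here.

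In the lean rats Aqp1 ranged from 621.9 to 756 TPM (median 667.4 TPM). In the obese rats the lowest value was 482.1 TPM (rat 8), the median 616.1 TPM and the highest 839.5 TPM (rat 7). The obese values thus enclosed all lean values. The lean control rats were at 720.4, 743.8, 708.2 and 796.9 TPM, and the obese + TT rats at 746.4, 714.9, 779.3 and 749.8 TPM. Both injected groups lay within the range of the obese rats, and each overlapped the lean rats too. The group means were, from low to high, 644.8 ± 126 TPM in obese (SD, n = 6), then 679.2 ± 50.4 TPM in lean (SD, n = 6), 742.3 ± 39.3 TPM in lean control (SD, n = 4). The obese + TT rats came highest, with 747.6 ± 26.3 TPM (SD, n = 4).

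**Figure D1:**
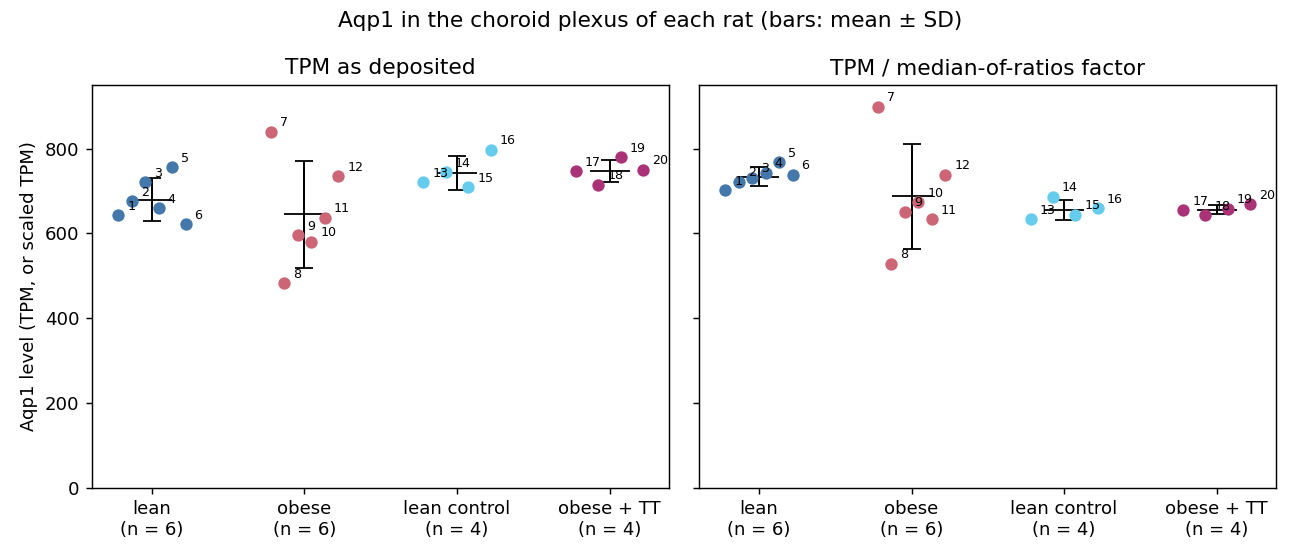
Aqp1 level in each rat (points, numbered by rat) by group, as deposited TPM (left) and as TPM divided by a median-of-ratios factor for each rat (right), with bars for the mean ± SD. In TPM the injected groups (means 742.3 and 747.6) stood above the untreated groups (679.2 and 644.8), whereas after median-of-ratios scaling they stood below them (655.4 and 656 against 733.8 and 687); the obese rats spread from rat 8 to rat 7 on both scales.

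Obese and lean untreated rats were compared first. The log2 difference of Aqp1 (obese minus lean) was -0.09 (standard error 0.11, 95% interval -0.33 to 0.14, adjusted p = 0.826, limma on log2(TPM + 0.1) with Benjamini-Hochberg adjustment). The exact two-sided permutation test gave p = 0.468, where 6 rats against 6 can reach 0.00216. The mean was 5.07% lower in the obese rats, less than the SD of either group. Of the 15176 genes tested, limma called 0 (0%) at an adjusted p under 0.05, and 1466 (9.66%) had an unadjusted p under 0.05. Leaving out 1 rat at a time moved the difference between -0.175 (without obese rat 7) and -0.0151 (without obese rat 8), so that its size, though not its sign, rested on these rats.

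The obese + TT rats were compared with the lean control rats next. The log2 difference of Aqp1 (obese + TT minus lean control) was 0.01 (standard error 0.06, 95% interval -0.12 to 0.14, adjusted p = 0.98 in limma). The exact two-sided permutation test gave p = 0.83, where 4 rats against 4 can reach 0.0286. The sign turned with the scaling, to -0.0015 in FPKM and to -0.02 when TPM was rescaled without Ttr. Limma called 0 of 15259 genes (0%) here, with 1134 genes (7.43%) at an unadjusted p under 0.05.

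The difference between these contrasts, tested in 1 limma fit of the 20 libraries, was 0.11 for Aqp1 (standard error 0.15, 95% interval -0.20 to 0.41, adjusted p = 0.888). Of 15406 genes 0 (0%) passed, and 1288 (8.36%) had an unadjusted p under 0.05. The p-values of all fits rest on the spread among rats.

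Across the cohorts the direction of Aqp1 depended on how the libraries were scaled. In TPM, lean control rats were higher than lean rats by 0.13 (log2; standard error 0.07, 95% interval -0.02 to 0.28, adjusted p = 0.119 in limma), and obese + TT rats were higher than obese rats by 0.24 (standard error 0.13, 95% interval -0.04 to 0.51, adjusted p = 0.127 in limma). Neither passed the threshold with all rats, in comparisons in which limma called 58.2 and 58.1% of the genes. The exact two-sided permutation tests gave p = 0.0905 and 0.143. Without obese rat 7, the highest of its group, obese + TT rats were higher than obese rats by 0.32 (adjusted p = 0.0212 in limma). Among the 6 pairs of groups compared in TPM by exact permutation tests, the adjusted p-values ran from 0.236 to 0.83, and no neighbours in the order of the means passed.

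The cohorts differed over the whole table. The transthyretin gene Ttr, which encodes the carrier of thyroid hormone that this epithelium secretes, took 31.2 to 39.3% of the TPM of an untreated rat and 25.8 to 30.5% of an injected rat. Since the TPM of a rat sum to 1000000, the share of Ttr moves the TPM of every other gene. The median log2 difference of all genes was 0.24 between the lean groups and 0.25 between the obese groups in TPM, and -0.03 and -0.02 after median-of-ratios scaling. This scaling divides each rat's TPM by the median of its ratios to the geometric mean, over genes above 0 in every library.

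After median-of-ratios scaling Aqp1 was at 733.8 ± 22.4 in the lean rats (SD, n = 6) and at 655.4 ± 23.1 in the lean control rats (SD, n = 4), with no overlap. The log2 difference was -0.16 (adjusted p = 0.00819 in limma), the opposite of the sign in TPM. FPKM, which is TPM times a factor of 0.921 to 1.22 for each rat, gave -0.13 (adjusted p = 0.0401 in limma), again with no overlap. The exact two-sided permutation p was 0.00476 in both, the smallest that 6 rats against 4 allow. When Ttr was left out of the total, Aqp1 was at 1029 ± 46.9 in lean and 1044 ± 47.8 in lean control rats, a log2 difference of 0.02. The obese + TT and obese rats differed by -0.05 after median-of-ratios scaling, by -0.04 in FPKM and by 0.08 without Ttr, none past the threshold. A direction of Aqp1 between the cohorts is therefore not given here.

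**Figure D2:**
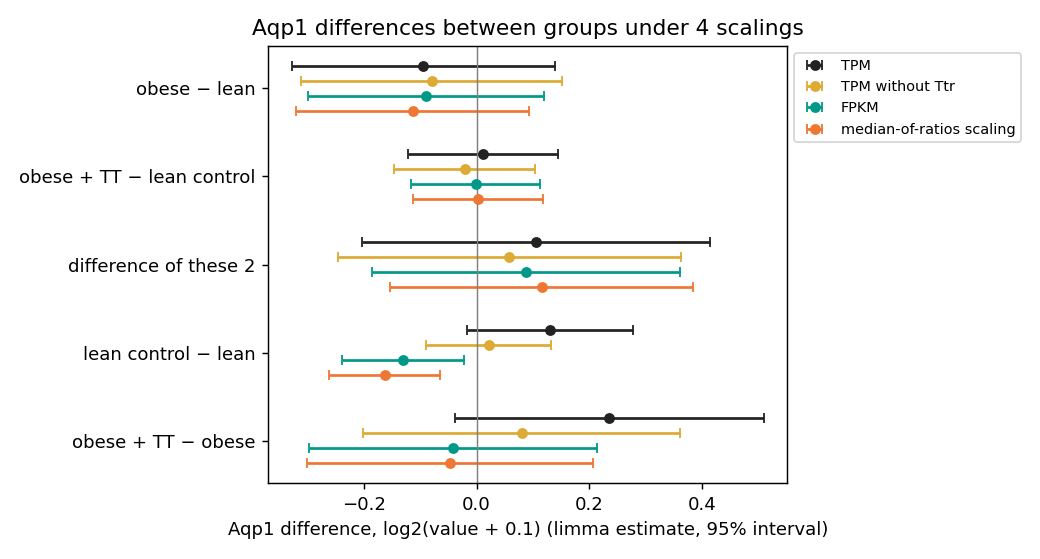
Log2 difference of Aqp1 between groups (points) with the 95% interval of limma (lines) for 5 comparisons and 4 scalings of the same libraries. The 3 upper comparisons are obese against lean rats in each cohort and the difference between these contrasts. Their intervals crossed 0 under each scaling shown, whereas lean control minus lean was 0.13 in TPM and -0.16 after median-of-ratios scaling.

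Other cell types in the dissected tissue differed between the cohorts as well. The summed TPM of the endothelial and mural genes Plvap and Rgs5 (2 of 15 listed genes with an identifier) was 119 to 180 in untreated and 4.42 to 19.8 in injected rats. The immune genes Cd74 and RT1-Da (2 of 10) summed to 201 to 330 TPM in untreated and 36.5 to 115 TPM in injected rats. Of 5 stromal genes 3 were lower in the injected rats, Dcn, Col1a1 and Col6a1. The other 2 were higher, Igf2, which is a growth factor gene, and Pdgfra (1.31 between the lean groups, log2 in TPM, adjusted p = 3.14e-05 in limma). Between the lean groups 41.7% of all genes were called higher and 16.5% lower in TPM, against 27.9 and 31.2% after median-of-ratios scaling. The calls of these endothelial, immune and stromal genes held under the 5 scalings run. The hemoglobin and red cell genes (5 of 12) summed to 2360 to 9090 TPM over the 20 rats. None of them was called between the cohorts in TPM. After median-of-ratios scaling 2 of the 5 were lower in lean control than in lean rats, where 31.2% of all genes were. Within the cohorts all 5 were higher in the obese rats, though none was called in limma. Their median log2 difference was 0.41 for obese minus lean (5 at an unadjusted p under 0.05, beside 9.66% of all genes). It was 1.12 for obese + TT minus lean control (4 of 5, beside 7.43%). Hba-a1, Hba-a2, Hbb and Hbb-bs are related hemoglobin genes, so that these counts are not of independent genes. The remaining gene, Slc4a1, was at 0.09 to 0.96 TPM over all rats, close to the 0.1 added to TPM. The epithelial markers were present in every rat, 14 of 16 with an identifier, led by Ttr and the lysophospholipase gene Enpp2. No gene of the list for brain parenchyma and ependyma had an identifier. In bulk tissue, fewer cells of a type cannot be told apart from less RNA per cell, and the part of these markers in the Aqp1 values between cohorts was not tested.

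The obese rats stood out by the spread of Aqp1 rather than by its mean. The coefficient of variation (CV, the SD as a share of the mean) was 19.5% in the obese rats, 7.42% in the lean, 5.29% in the lean control and 3.52% in the obese + TT rats. Among the 917 genes that averaged 100 TPM or more, 92.5% had a smaller CV than Aqp1 in the obese rats, where the median gene was at 8.97%. In the lean, lean control and obese + TT rats, 35.3, 28 and 14.2% of these genes had a smaller CV. Aqp1 was thus more variable than most abundant genes in 1 group and less variable than most in the other 3.

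Rat 7 lay 0.40 above the obese mean on the log2 scale and rat 8 lay 0.40 below it. Only 19 of the 917 genes deviated further upward in rat 7 than Aqp1, and 4 deviated further downward in rat 8. Rat 12, at 735.3 TPM, was 0.21 above the mean, with 78 genes further up. The other obese rats were at 595, 579.8 and 637.2 TPM. Without rat 7 the CV of the obese group was 15.2%, and without rat 8 it was 16.1%, so that neither rat alone made the spread.

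The SD of the log2 values in obese rats was 2.65 times that in lean rats. This test was added after the values had been seen. An exact two-sided permutation test of the absolute deviations from the group median gave p = 0.123. Against the obese + TT rats the ratio was 5.49 (exact permutation p = 0.0619). Neither passed 0.05, and the scalings gave ratios of obese to lean of 3.98 to 5.78 with p from 0.0606 to 0.177. The wider spread is therefore a description of these 6 rats.

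**Figure D3:**
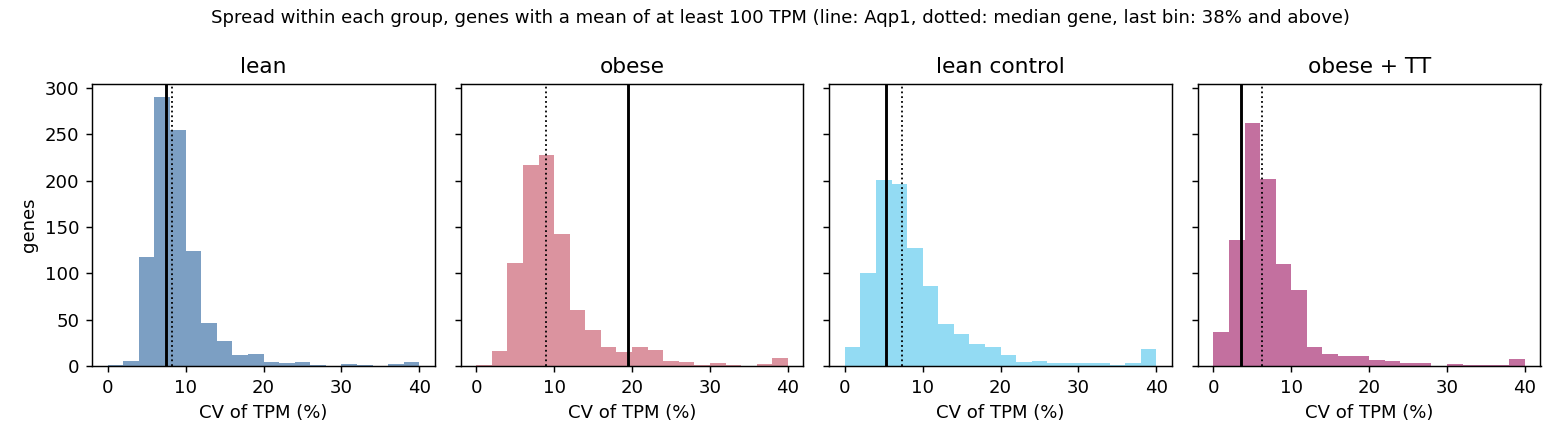
Number of genes by CV of TPM (percent) within each group, over the 917 genes that averaged 100 TPM or more; the solid line is Aqp1 and the dotted line the median gene. Aqp1 lay left of the median gene in lean, lean control and obese + TT rats and far to its right in obese rats (19.5 against 8.97%).

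Several abundant genes followed Aqp1 from rat to rat within the groups. Each gene's log2(TPM + 0.1) was taken as a deviation from its group mean, and Pearson's r with Aqp1 was computed over the 20 rats for the other 916 genes that averaged 100 TPM or more. These correlations are descriptions. The points share their libraries and the share that Ttr takes in each, and the genes were ranked by the same values. The median r was 0.0592, and 23 genes had an r of at least 0.7, while none reached -0.7. After median-of-ratios scaling the median r was -0.189.

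Sparc, which encodes a secreted protein of the extracellular matrix, followed Aqp1 most closely (r = 0.863, Spearman's rho = 0.836, n = 20 rats). In the obese rats 7 to 12 it was at 453.8, 322.8, 348.8, 348.8, 414.8 and 452.4 TPM. Its lowest obese value was thus in rat 8 and its highest in rat 7, as for Aqp1. In the lean rats Sparc ranged from 328.9 to 397.7 TPM. Its lowest value was in rat 6, the lean rat with the least Aqp1, and its highest in rat 3, whereas Aqp1 was highest in rat 5. In rat 6 the abundant genes were low as a set (median log2 deviation -0.16, Aqp1 -0.124), and Ttr took 39% of the TPM. After median-of-ratios scaling Aqp1 in rat 6 was 738.2, above the lean mean of 733.8. On that scale Sparc had r = 0.806 with Aqp1 over the 20 rats.

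Anxa2, for annexin A2, which binds membrane phospholipids in the presence of calcium, had r = 0.85 (rho = 0.735). It was at 209.3 TPM in obese rat 7 and 185.7 TPM in rat 12, and at 132 to 153.6 TPM in the other obese rats. Rat 8, lowest for Aqp1, was at 136.6 TPM and was not the lowest for Anxa2. The third was Ddb1, a subunit of a ubiquitin ligase that takes part in DNA repair (r = 0.842, rho = 0.803).

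The other genes of the 10 most like Aqp1 had r from 0.775 to 0.837. They were Pdlim4, an actin-associated protein gene, the desaturase genes Fads2, Degs1 and Scd2, which act on fatty acids and on a sphingolipid, Tmbim6, a membrane protein gene of the endoplasmic reticulum, Actn4, for an actin crosslinker, and Ctnnb1, for beta-catenin, which links cadherins to actin and carries Wnt signals. In the 12 untreated rats these r lay between 0.772 (Actn4) and 0.901 (Sparc), and in the 8 injected rats between 0.379 (Pdlim4) and 0.87 (Actn4). The injected rats spanned a narrow range of Aqp1. Obese rats 7 and 8 were the 2 rats farthest from the median of Aqp1. Without them the 10 genes had r of 0.571 (Degs1) to 0.871 (Tmbim6) over 18 rats. Over the same 18 rats, 92 of the 916 abundant genes reached an r of at least 0.7, beside 23 with all rats. A high r over these 18 rats was thus not particular to the 10.

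**Figure D4:**
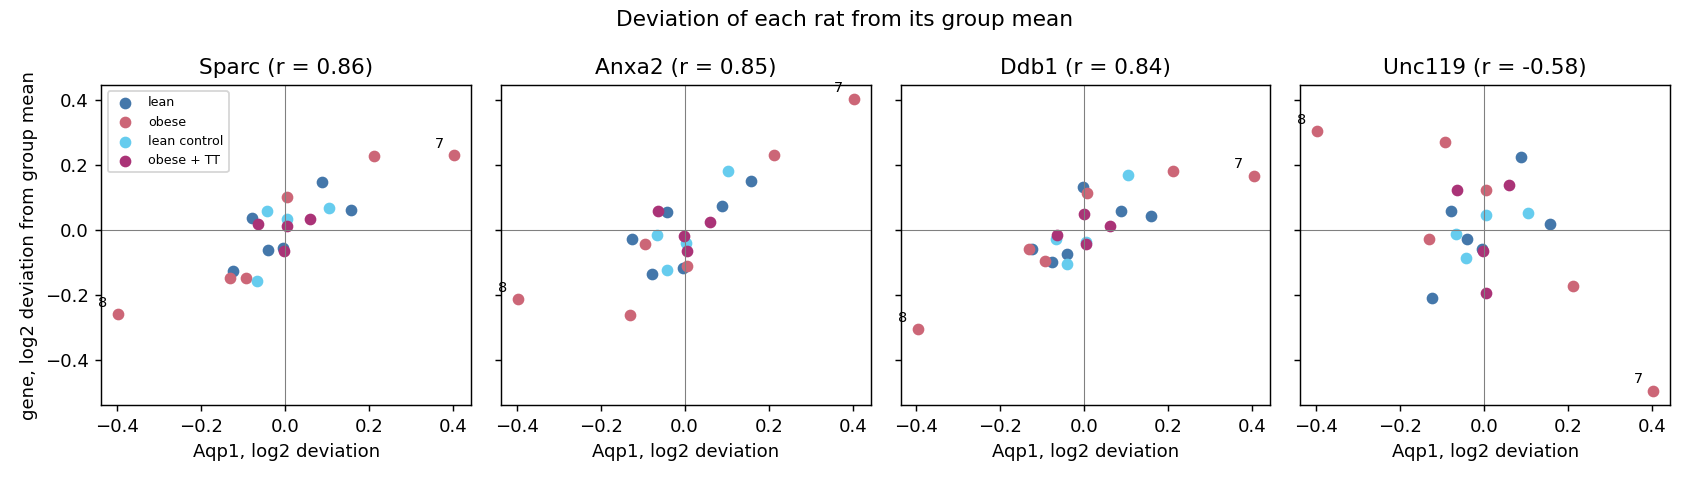
Log2 deviation of each rat from its group mean for Aqp1 (horizontal) and for Sparc, Anxa2, Ddb1 and Unc119 (vertical), with 1 point per rat, colored by group, and obese rats 7 and 8 numbered. Sparc (r = 0.863), Anxa2 (0.85) and Ddb1 (0.842) rose with Aqp1 over the 20 rats. The r of -0.584 for Unc119 was -0.0125 without rats 7 and 8, with the group means of all rats kept.

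Membership among the 10 depended on who was counted. With a minimum of 50 TPM in place of 100, 2 of the 10 stayed, Sparc and Anxa2, and Eif6, a factor of ribosome assembly, led with r = 0.88. With a minimum of 200 TPM 3 stayed, Sparc, Tmbim6 and Scd2. Without obese rat 7 only 2 of the 10 stayed and without obese rat 8 4 stayed. With r counted apart in each cohort, 37 genes reached 0.7 in the untreated rats and 63 in the injected rats, and 9 reached it in both. Among these 9 were Ddb1, Degs1, Actn4, Ap2m1, for a clathrin adaptor subunit, Hspa9, for a mitochondrial chaperone, Atp2a2, for a calcium pump of the endoplasmic reticulum, Mfge8 and Gas6, both for secreted proteins that bind phosphatidylserine.

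At the other end stood Ech1, an enzyme gene of fatty acid oxidation (r = -0.584), Unc119, which carries lipid-modified proteins (-0.584), Thyn1 (-0.576), Tsen34l1 (-0.567) and Trmt112, an activator of methyltransferases (-0.563). In obese rats 7 to 12 Unc119 was at 79.8, 139, 135.9, 110.4, 122.6 and 99.78 TPM, lowest where Aqp1 was highest and highest where Aqp1 was lowest. Without obese rats 7 and 8, but with the group means of all rats, these r ran from -0.254 to 0.00199. In the 6 lean rats it was above 0 for each of them, from 0.348 to 0.761. In the 6 obese rats it lay between -0.938 and -0.764.

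The 10 genes did not all change with Aqp1 between the groups. None passed limma's threshold between obese and lean or between obese + TT and lean control rats. In TPM, 7 of the 10 rose in lean control against lean rats, where 41.7% of all genes tested rose, from 0.40 for Tmbim6 to 1.02 for Scd2 (log2), while Sparc (0.05), Anxa2 (0.06) and Pdlim4 (0.04) did not pass, like Aqp1 (0.13). After median-of-ratios scaling, Sparc fell by 0.24, Anxa2 by 0.23 and Pdlim4 by 0.25 on the log2 scale (adjusted p = 0.00142, 0.00879 and 0.00593 in limma), the sign turned as for Aqp1, and Tmbim6 no longer passed (0.10, adjusted p = 0.111). A promoter was found for 9 of the 10 genes. Of these, 1 held the TATA box (Anxa2), beside 14.2% of all promoters, and 7 held CACCC (54.9% of all promoters). CCAAT was held by 3 (37.5%), an E box by 3 (72.1%), GATAA by 1 (26.5%) and TGTTCT by none (20.7%). A difference from these shares was not tested.

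The ion transport genes of CSF secretion were read as a list of 28, of which 15 had an identifier. Their r with Aqp1 was above 0 for 14 of 15 and had a median of 0.309 in TPM, beside 525 of the 916 abundant genes above 0 and their median of 0.0592. After median-of-ratios scaling 8 of 15 were above 0, with a median of 0.0259, beside a median of -0.189 for the abundant genes. The bicarbonate transporter genes Slc4a10 and Slc4a5 had r = 0.501 and 0.479. Kcnj13, for a potassium channel of the ventricular membrane, had r = 0.483 (rho = 0.693, 0.468 in untreated and 0.747 in injected rats). In obese rats 7 to 12 Kcnj13 was at 571.1, 571.2, 524.4, 465.9, 672.9 and 872.2 TPM. It was highest in rat 12, and rats 7 and 8, at the ends of the Aqp1 range, had nearly the same level.

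The pump subunit gene Atp1b1 had r = 0.293, the cotransporter gene Slc12a2, for NKCC1, 0.226 and its activating kinase gene Stk39 0.133. Car2, for a carbonic anhydrase, was the only member below 0 (-0.346). These r depended on the scaling. After median-of-ratios scaling Slc4a5 was at 0.27 and Kcnj13 at 0.149, while Atp1b1 was at -0.204, Slc12a2 at -0.15 and Stk39 at -0.492.

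**Figure D5:**
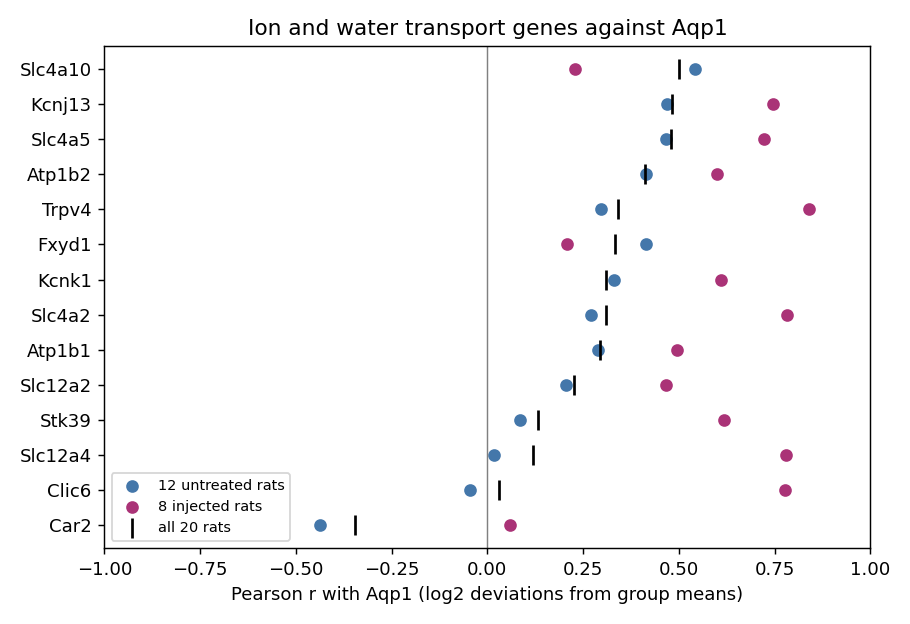
Pearson's r with Aqp1 of 14 measured transport genes (log2 TPM deviations from group means) in the 12 untreated rats, the 8 injected rats and all 20 rats. Of the genes plotted, Slc4a10 (0.501 over all rats) was highest and Car2 (-0.346) lowest, and 13 of 14 were above 0 in TPM; after median-of-ratios scaling genes such as Atp1b1 and Stk39 were below 0.

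Within the cohorts none of the 15 transport genes passed limma's threshold, like Aqp1. Obese against lean rats had 2 of them higher and 13 lower (median -0.08, all genes 0.02), and obese + TT against lean control rats 9 higher and 6 lower (median 0.02, all genes 0.01). Between the cohorts most of them rose. In TPM, 13 of 15 rose in lean control against lean rats and none fell, where 41.7% of all genes tested rose. Their median was 0.58, beside 0.24 for all genes and 0.13 for Aqp1. In obese + TT against obese rats 14 of 15 rose and none fell, where 41.7% of all genes rose, with a median of 0.62 beside 0.25 for all genes and 0.24 for Aqp1. After median-of-ratios scaling 9 rose and 1, Car2, fell between the lean groups (27.9% of all genes rose and 31.2% fell), with a median of 0.28.

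Kcnj13 was at 1245, 1299, 1250 and 1388 TPM in the lean control rats and at 1207, 1146, 1254 and 1351 TPM in the obese + TT rats, above every untreated rat (458.1 to 872.2 TPM). It rose by 1.07 between the lean groups and by 1.04 between the obese groups (log2; adjusted p = 9.79e-06 and 6.58e-05 in limma), and by 0.78 and 0.76 after median-of-ratios scaling. Slc12a2 rose by 0.44 and 0.60 in TPM (adjusted p = 0.000304 and 9.29e-06 in limma). Under the scaling in which Aqp1 was lower in lean control than in lean rats, Kcnj13 (0.78) and Slc12a2 (0.14) were still higher. Whether Aqp1 differed from these genes in its change was not tested.

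Summed levels of 7 lists of genes were set beside Aqp1 in each rat, both as deviations from group means. Over the 20 rats the transport list had r = 0.294 (permutation p = 0.285, adjusted p = 0.911) and rho = 0.549 (permutation p = 0.0334, adjusted p = 0.234). Without the 2 rats farthest in the list's level, with the group means of all rats kept, r was 0.205. Without obese rat 7 it was 0.62 (permutation, adjusted p = 0.0839). It was 0.243 in the untreated and 0.871 in the injected rats. These r are in TPM. In FPKM and after median-of-ratios scaling the r of the transport list over the 20 rats was below 0, as given in the section on processing. The endothelial and mural list had r = 0.106 (permutation p = 0.491) and the blood list r = -0.0644 (permutation p = 0.775), so that neither was seen to follow Aqp1 within the groups. Stroma (r = -0.0855), immune cells (-0.0629) and the list of osmotic and natriuretic peptide signalling (0.00561, 3 of 15 genes) had permutation p of 0.678 or more. After adjustment over the 7 lists no r and no rho passed, the lowest adjusted p being 0.234.

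Of the 3 osmotic genes measured, Hspa4l had a high r of its own (0.814, rho = 0.817, with 0.861 in untreated and 0.354 in injected rats). It encodes a chaperone of the heat shock family induced by osmotic stress. Its mean of 45.5 TPM was below the 100 TPM of the abundant genes. Over the 20 rats the other 2 had r below 0, Sgk1 -0.236 and Akr1b1 -0.114. In obese rats 7 to 12 Hspa4l was at 51.91, 25.81, 23.37, 29.46, 39.78 and 47 TPM, high in rats 7 and 12 as Aqp1 was. It rose by 0.97 between the lean groups and by 0.75 between the obese groups in TPM (adjusted p = 7.72e-06 and 0.00826 in limma), where 41.7% of all genes tested rose in each comparison. Between the obese groups it no longer passed in FPKM (0.48, adjusted p = 0.0549 in limma) or after median-of-ratios scaling (0.47, adjusted p = 0.0541 in limma). The other 2 measured genes of the list did not rise. Sgk1, for a kinase induced by glucocorticoids, fell by 0.54 between the lean groups and was at -0.13 between the obese groups (adjusted p = 0.0116 and 0.36 in limma). Akr1b1, for aldose reductase, which makes sorbitol, was at -0.09 and fell by 0.19 (adjusted p = 0.243 and 0.0244 in limma). After median-of-ratios scaling both fell in both comparisons.

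The epithelial list, whose sum is nearly all Ttr, had r = -0.18 (permutation p = 0.535). Ttr itself had r = -0.192 with Aqp1. Summed without Ttr, a choice made after seeing the data, the 13 other epithelial genes had r = 0.438 (permutation p = 0.095) and rho = 0.741 (permutation p = 0.00104, not adjusted), with r = 0.419 in untreated and 0.736 in injected rats. The sign of this relation thus turned with 1 gene. The relation of the sum without Ttr is not given after median-of-ratios scaling. Singly, its genes had r from -0.14 (Sostdc1) to 0.483 (Kcnj13) in TPM. After median-of-ratios scaling their r ran from -0.738 (Sostdc1) to 0.391 (Cldn1), and that of Enpp2 was 0.123 in place of 0.451.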

How the data were processed

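RNA of the choroid plexus of 20 rats was prepared with a NEB Next Ultra kit and sequenced in read pairs. Per the labels, the submitters' processing notes name STAR 2.7.9a, RSEM 1.3.3 and DESeq2 3.16, and the reads were mapped to Rnor_6.0. The authors deposited TPM and FPKM for each rat and gene, and the program that made these values is not given in the sources used here. Counts were not used here. TPM keep no depth, so that no interval for counting error is given.

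TPM were compared as log2(TPM + 0.1) with limma 3.58.1 in R 4.3.3 (eBayes with a trend), on the groups of 1 comparison, over genes that averaged at least 0.1 TPM, with Benjamini-Hochberg adjustment and a threshold of 0.05. Fold changes on this scale understate those of low genes. The fit was tested on simulated data. Aqp1 alone was compared by exact two-sided permutation tests. List relations used 100000 shuffles of the rats within groups. Python 3.11.15 with pandas 2.3.3, scipy 1.17.1 and matplotlib 3.10.9 was used. The alternatives were the pseudocount, the minimum level, the options of limma, FPKM, TPM without Ttr (and without 13 mitochondrial genes), median-of-ratios factors, all libraries in 1 fit and leaving out each rat.

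Named were Aqp1, its 3 neighbours in level on each side, the 10 abundant genes (at least 100 TPM) with the highest and the 5 with the lowest r, and members of the lists. Further genes named, such as Hspa4l, Eif6 and the 9 genes with a high r in both cohorts, were chosen after their values were seen. The genes and lists were chosen with earlier results of these data known. A member of the transport list is counted with it but not reported here. Symbols (2616 of 32883 identifiers) come from the study's supplementary tables. No duplicate library was found: identical values made up 1.92% or less of the genes above 0 in any pair within a group.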

Additional observations from a re-analysis of the deposited data

Results flagged for a closer look

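Single rats were looked for whose gap to the nearest rat of their group was large for the range of the group (Dixon's test at 95%). Aqp1 was not among them in any group, although obese rats 7 and 8 lay far from the mean. The nearest rat was rat 12 (735.3 TPM) for rat 7 (839.5 TPM) and rat 10 (579.8 TPM) for rat 8 (482.1 TPM). Of 124 groups checked over Aqp1, the genes most and least like it and the transport genes, 6 were found, where chance alone gives about 6.2 (1 in 20). That figure takes the groups as independent and unselected. The genes most and least like Aqp1, among them Degs1 and Ech1, were picked by their r in these same rats. Extremes of such genes in obese rats 7 and 8 are thus partly built in. In lean control rat 15 Sparc was at 333.6 TPM, lower than in its group (381 to 389.5 TPM). Obese rat 7, highest for Aqp1, had 143.4 TPM of Degs1 (others 96.05 to 108 TPM). Obese rat 8, lowest for Aqp1, had 164.6 TPM of Ech1 (others 98.43 to 120.8 TPM). Trmt112 was at 207.5 TPM in lean rat 5 (others 176.1 to 186.3 TPM), the lean rat with the highest Aqp1. Fxyd1, which encodes a regulator of the sodium and potassium pump, was at 981.9 TPM in lean control rat 13 (others 1138 to 1148 TPM) and at 1037 TPM in obese + TT rat 20 (others 1144 to 1159 TPM).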

How the results depend on the processing

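Obese minus lean and the difference between the contrasts kept their sign and stayed short of the threshold under every alternative run (-0.175 to -0.0151 and 0.0261 to 0.186 on the log2 scale over the fits that left out 1 rat). Obese + TT minus lean control, 0.01 in TPM, was -0.00149 in FPKM, -0.0213 without Ttr, -0.00323 without Ttr and mitochondrial genes, and -0.0111 to 0.0456 when 1 rat was left out. Lean control minus lean was -0.13 in FPKM and -0.163 after median-of-ratios scaling, with 0.0953 to 0.161 when 1 rat was left out. Obese + TT minus obese was -0.0418 in FPKM and -0.0478 after median-of-ratios scaling, and ran from 0.156 to 0.316 when 1 rat was left out. It passed the threshold in TPM without obese rat 7 (0.316, adjusted p = 0.0212 in limma). The causes were not tested beyond the scaling itself. The SD ratio of obese to lean ran from 2.09 to 3.47 when 1 rat was left out.

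Genes called over all alternatives numbered 0 to 3 for obese against lean, 0 to 25 for obese + TT against lean control (25 without lean control rat 13) and 0 to 14 for the difference. Between the cohorts they numbered 7883 to 9136 (lean) and 7809 to 9130 (obese). Of the genes tested between the lean groups, 41.7% were called higher and 16.5% lower in TPM, against 27.9 and 31.2% after median-of-ratios scaling. Between the obese groups these shares were 41.7 and 16.4%, against 27.6 and 29.9%.

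Of the 10 genes most like Aqp1, 2 stayed with a minimum of 50 TPM, 3 with 200 TPM, 5 without centring on group means, 9 without Ttr, 9 after median-of-ratios scaling, and 2 to 10 when 1 rat was left out. The r of the list levels with Aqp1 turned sign as follows. FPKM gave -0.216 for transport, -0.163 for the osmotic list and -0.0833 for endothelium. Median-of-ratios scaling gave -0.459, -0.0971 and -0.0961 for these, 0.0738 for epithelium and 0.0693 for blood. Without Ttr in the total, r was -0.0143 for the osmotic list, 0.413 for epithelium and 0.0213 for blood, and summing the epithelial list without Ttr gave 0.438. Without centring, r was -0.461 for endothelium and 0.43 for stroma. Leaving out 1 rat, r ran from 0.229 to 0.62 for transport, -0.0517 to 0.192 for the osmotic list, -0.433 to -0.0839 for epithelium, -0.257 to 0.0419 for blood, 0.042 to 0.199 for endothelium, -0.176 to 0.156 for stroma and -0.154 to 0.0283 for immune cells. The lowest adjusted p of an r under these settings was 0.0839 (permutation), and the values without centring and for the epithelial list without Ttr were not adjusted.

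No paired analysis was possible because the groups share no replicate numbers. TPM hold no depth, so that counting error cannot be separated from the spread among rats. With 4 to 6 rats in a group, differences of Aqp1 inside the printed intervals were not excluded.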

Other observations

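Otx2, a transcription factor gene of the choroid plexus epithelium, was noticed after the values had been seen. It was at 7.85 TPM in obese rat 10, where the other obese rats were at 67.29 to 85.94 TPM, and at 200.06 TPM in obese + TT rat 20, where the others of that group were at 107.3 to 115.01 TPM. Aqp1 was at 579.8 TPM in obese rat 10 and at 749.8 TPM in obese + TT rat 20, both inside the range of their group.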
